A study of Mus musculus with 42 samples.

Results

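The genes of the liver X receptor (LXR) system followed here were the receptor genes Nr1h3 and Nr1h2, the sterol transporter genes Abca1, Abcg1, Abcg5 and Abcg8, and the phospholipid genes Lpcat3 and Pltp. They were chosen by name, with earlier results of these data known, and they are 8 of the 54446 genes counted. All 8 passed the filter on low counts. Liver RNA came from 42 female APOE*3-Leiden mice, which carry a human APOE variant transgene and develop raised plasma lipids on a cholesterol-rich diet. Of these mice, 10 stayed on maintenance chow as a reference and 16 received a Western-type diet (WTD) with 15% cocoa butter, 40.5% sucrose and 1% cholesterol by weight. The remaining 16 received the same WTD with atorvastatin, an inhibitor of cholesterol synthesis, at 3.0 mg/kg/day and at 4.5 mg/kg/day from week 5. The WTD-fed mice were 8 to 14 weeks old at the start of a run-in of 3 weeks on WTD, sodium cholate (0.05%) was added to both WTD arms from week 22, and livers were taken at week 32. The labels used here give no age for the chow-fed mice and number them with another prefix than the WTD-fed mice. Diet and whatever this prefix stands for therefore cannot be told apart between chow and WTD.

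LXRs are nuclear receptors that bind oxidized forms of cholesterol and, paired with a retinoid X receptor, switch on genes that move sterols out of cells. In liver, their target genes send cholesterol to bile and to high-density lipoprotein, change the fatty acids of membrane phospholipids and drive fatty acid synthesis. Macrophages use the same receptors to unload cholesterol that they have taken up.

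Of the 8 genes, 5 were higher and 1 was lower in WTD-fed than in chow-fed livers. All 4 sterol transporter genes and Pltp rose, from 2.04-fold for Abca1 to 10.3-fold for Abcg1, while the receptor gene Nr1h2 fell to 0.804-fold. A gene was called at an adjusted p under 0.01 in edgeR's quasi-likelihood test, and in this comparison 33.5% of all 15574 tested genes were called, 17.5% as higher and 16.0% as lower. The median log2 fold change of the 8 genes was 1.25, beside 0.03 over all tested genes. Because the 8 were chosen with earlier results known, this contrast describes them and is not a test. When atorvastatin-treated mice were compared with mice on WTD alone, edgeR called 0 of the 8 genes, where it called 7.10% of all tested genes (4.84% as higher and 2.26% as lower). Abca1, Abcg1 and Lpcat3 had an unadjusted p under 0.05 there, and DESeq2 called 1 of the 8 (Abcg1) and limma-voom 3 (Abca1, Abcg1 and Lpcat3). Against chow, atorvastatin-treated mice had 6 of the 8 genes higher and 0 lower, where 25.0% of all tested genes were called, 14.2% as higher and 10.7% as lower. Levels are given as CPM, the counts of a gene scaled to a common library size after TMM normalization.

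**Figure D1:**
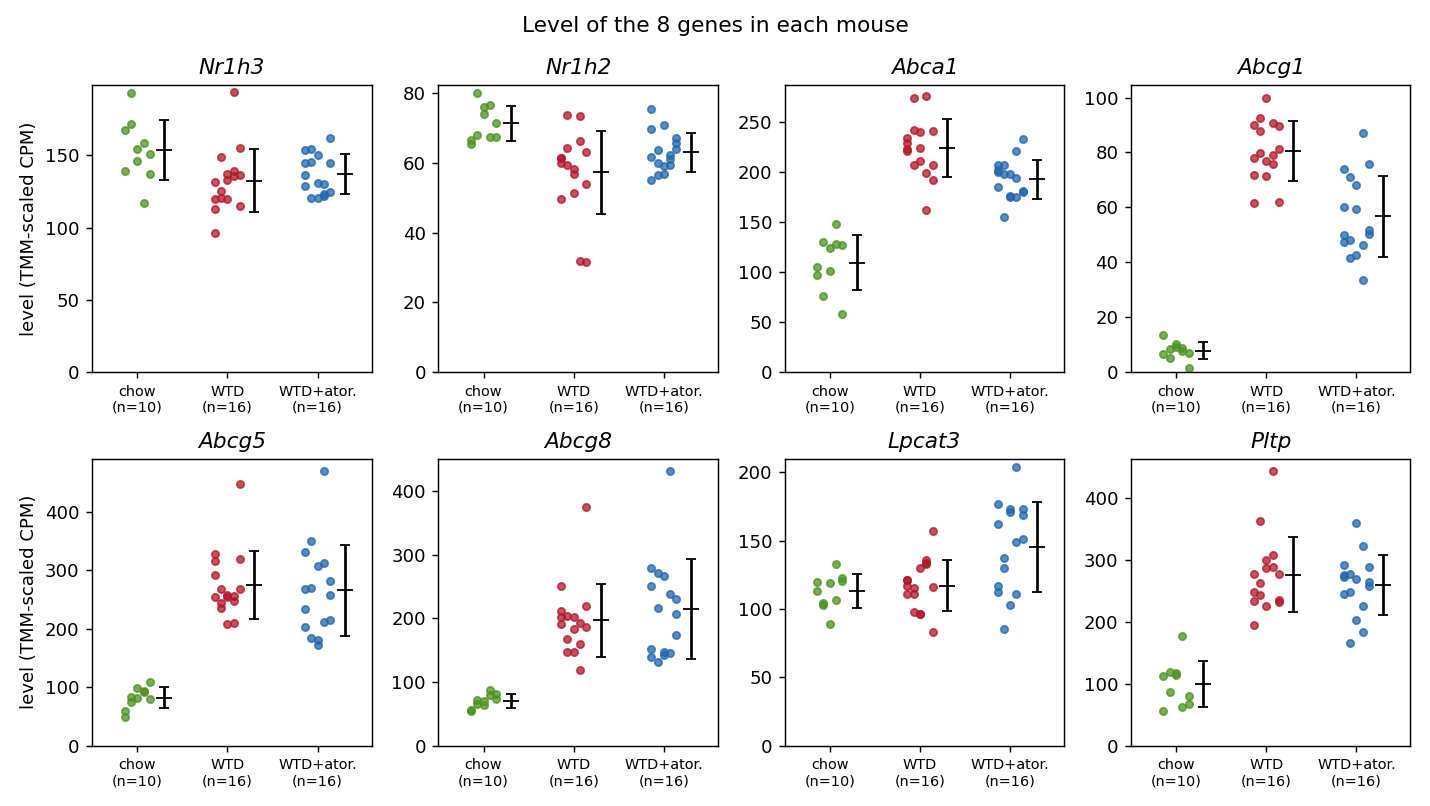
Level of each gene in every mouse, in TMM-scaled CPM (y axis, from 0), for chow, WTD and WTD with atorvastatin (x axis). Points are mice and bars give mean ± SD. For Abca1, Abcg1, Abcg5 and Abcg8, all 32 WTD-fed mice lie above the highest chow-fed mouse, while the 3 groups overlap for Nr1h3, Nr1h2 and Lpcat3.

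**Figure D2:**
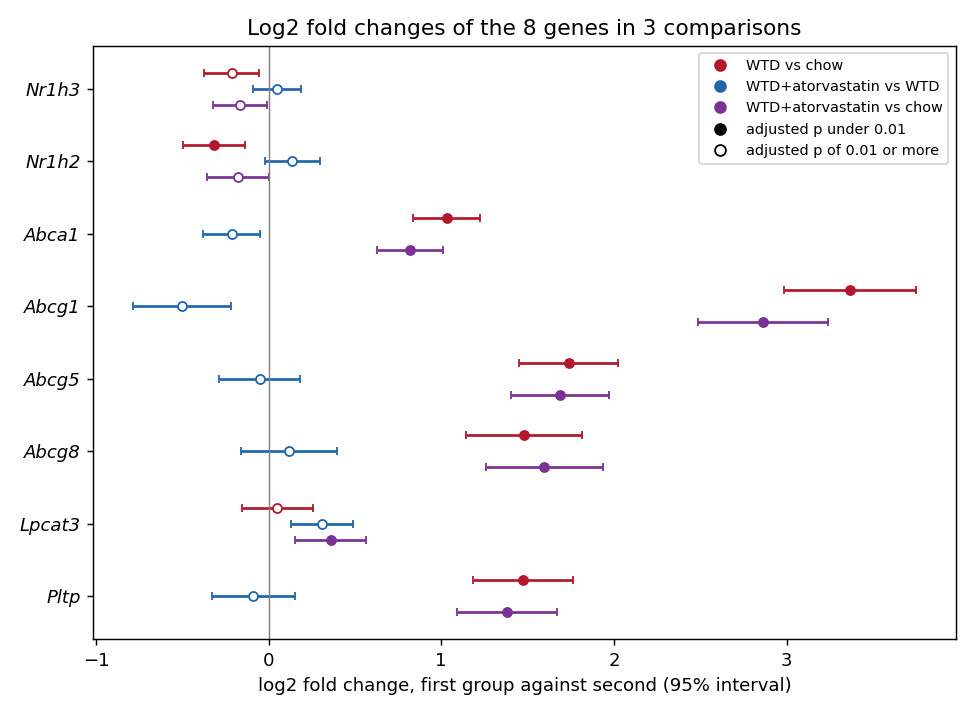
Log2 fold change (x axis) of each gene with its 95% interval in 3 comparisons, from edgeR. Filled points have an adjusted p under 0.01. The largest value is that of Abcg1 between WTD and chow (3.37), and the 8 points for atorvastatin against WTD are all open.

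Libraries held 15661381 to 36224054 counts on genes. In 8 libraries (3 chow, 4 WTD and 1 atorvastatin), over 20% of the genes at 1 to 2 CPM in their own group had no count, up to 59.7%. The macrophage markers moved with diet. All 7 markers that were tested rose in WTD-fed mice, and their summed level ran from 288 to 424 CPM on chow, from 1207 to 2930 CPM on WTD and from 950 to 1899 CPM with atorvastatin. Itgam, also a macrophage marker, had no count in any mouse, and whether this came from its expression or from the counting was not tested. The 7 hepatocyte markers all fell on WTD, with summed levels of 98579 to 144816 CPM on chow, 43914 to 102040 CPM on WTD and 56854 to 122950 CPM with atorvastatin, where 4 of the 7 were higher than on WTD. Alb was the largest part of this sum, with means of 95000 CPM on chow, 50778 CPM on WTD and 78327 CPM with atorvastatin. The part of these changes in the results below was not tested, and in bulk tissue fewer cells of a type and less RNA per cell cannot be told apart.

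Nr1h3 encodes LXRα, the form enriched in liver and macrophages (ENSMUSG00000002108, GRCm38 chr2:91184061-91202834, minus strand). Its level was 117 at the lowest, 153 at the median and 193 at the highest in chow-fed mice, 96.0, 132 and 194 in WTD-fed mice, and 120, 134 and 162 with atorvastatin. The 3 groups overlapped over most of their range, and 14 of 16 WTD-fed mice lay below the chow median. The log2 fold change between WTD and chow was -0.21 (SE 0.08), which did not pass the threshold in edgeR (adjusted p = 0.024) and did in limma-voom (adjusted p = 0.0034). With atorvastatin it differed from WTD by 0.05 on the log2 scale (SE 0.07, edgeR adjusted p = 0.75).

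Nr1h2 encodes LXRβ, the form found in most tissues (ENSMUSG00000060601, GRCm38 chr7:44549616-44553951, minus strand). Chow-fed mice had 65.5 CPM at the lowest, 69.8 at the median and 80.0 at the highest, WTD-fed mice 31.7, 59.7 and 73.7, and atorvastatin-treated mice 55.2, 61.9 and 75.4. Of the WTD-fed mice, 13 of 16 lay below every chow-fed mouse, and so did 11 of 16 with atorvastatin. The log2 fold change between WTD and chow was -0.32 (SE 0.09, edgeR adjusted p = 0.0033). WTD mice 9 and 10 stood apart at 32.0 and 31.7 CPM, and in their libraries 40.7% and 46.2% of the weakly expressed genes had no count. Without the 8 libraries of this kind the difference was -0.22 and did not pass the threshold (edgeR adjusted p = 0.014). Atorvastatin and WTD differed by 0.14 on the log2 scale (SE 0.08, edgeR adjusted p = 0.30).

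The ratio of Nr1h3 to Nr1h2 counts within a mouse was 2.10 at the chow median, 2.32 at that of WTD and 2.17 at that of atorvastatin, and was highest in WTD mice 9 and 10 (4.36 and 4.32), the libraries with 40.7% and 46.2% of weakly expressed genes without a count. The mean log2 ratio was 1.10 ± 0.17 (SD, n = 10) on chow, 1.23 ± 0.41 (n = 16) on WTD and 1.12 ± 0.13 (n = 16) with atorvastatin. None of the 3 differences between groups passed (two-sided permutation tests, adjusted p = 0.44, 0.44 and 0.73).

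Abca1 encodes the transporter that hands cholesterol and phospholipid to lipid-poor apolipoprotein A-I (ENSMUSG00000015243, GRCm38 chr4:53030787-53159895, minus strand). Its promoter is shown because Abca1 is the textbook LXR target, with the site closest to a DR4 element in capitals. DR4 is the pair of half-sites that LXR with a retinoid X receptor binds, 2 copies of AGGTCA with any 4 bases between them, searched on both strands. The sequence is the 250 bases before the RefSeq start in GRCm38.p6 (chr4:53159896-53160145, minus strand).
Abca1: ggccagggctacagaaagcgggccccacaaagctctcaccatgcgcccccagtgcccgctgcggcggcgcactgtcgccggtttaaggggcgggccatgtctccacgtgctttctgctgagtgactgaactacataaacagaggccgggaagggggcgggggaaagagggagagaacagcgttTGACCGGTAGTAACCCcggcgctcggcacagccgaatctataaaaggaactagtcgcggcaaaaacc
The capitals read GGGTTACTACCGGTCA on the opposite strand, begin 67 bases before the start and differ from DR4 at 3 of its 12 specified bases. Of 32851 mouse promoter windows of 300 bases, 21.9% held a match at least as close, so the match is a description of the letters only.

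Abca1 was at 58.5 CPM at the lowest, 114 at the median and 148 at the highest on chow, at 162, 224 and 277 on WTD, and at 156, 196 and 234 with atorvastatin. No WTD-fed mouse of either group overlapped the chow-fed mice. The log2 fold change was 1.03 (SE 0.10, edgeR adjusted p = 5.8e-13) between WTD and chow and 0.82 (SE 0.10, edgeR adjusted p = 1.0e-09) between atorvastatin and chow. The lowest chow-fed mice were 5, 2 and 6 (58.5, 75.9 and 96.9 CPM). In their libraries 46.4%, 59.7% and 28.1% of the weakly expressed genes had no count. Over 12 alternative settings of the processing, these log2 fold changes ran from 0.84 to 1.09 and from 0.66 to 0.84. Of the atorvastatin-treated mice, 15 of 16 lay below the WTD median. This difference of -0.21 (SE 0.08, 95% interval -0.38 to -0.05) did not pass over all tested genes in edgeR (adjusted p = 0.076).

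Abcg1 encodes a transporter that moves cholesterol towards high-density lipoprotein particles and is prominent in macrophages (ENSMUSG00000024030, GRCm38 chr17:31057675-31117988, plus strand). It was the lowest of the 8 genes on chow, with 28 to 222 counts per library. Its level there was 1.4 CPM at the lowest, 8.06 at the median and 13.5 at the highest. The lowest and the highest came from chow mice 5 and 6, in whose libraries 46.4% and 28.1% of the weakly expressed genes had no count, and the next lowest chow-fed mouse was at 5.25 CPM. WTD-fed mice had 61.5, 79.5 and 99.7 CPM, and atorvastatin-treated mice 33.6, 51.0 and 87.2 CPM. The groups on WTD lay far above chow without overlap, and 15 of 16 atorvastatin-treated mice lay below the WTD median. Between WTD and chow the log2 fold change was 3.37 (SE 0.19, edgeR adjusted p = 4.8e-19), or 10.3-fold with a 95% interval of 7.91 to 13.5. Without the 8 libraries lacking weakly expressed genes it was 3.29 on the log2 scale. Between atorvastatin and chow it was 7.28-fold, with an interval of 5.61 to 9.44.

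Between atorvastatin and WTD, Abcg1 had a log2 fold change of -0.50 (SE 0.14, 95% interval -0.79 to -0.22), which missed the threshold of 0.01 in edgeR (adjusted p = 0.011). It passed with DESeq2 (-0.55, adjusted p = 0.0020) and limma-voom (-0.49, adjusted p = 2.3e-05). In this comparison the summed macrophage markers had medians of 2142 CPM on WTD and 1258 CPM with atorvastatin, and 5 of the 7 tested markers fell. Lyz2 was the largest part of the sum, with a mean of 1099 CPM on WTD and 554 CPM with atorvastatin. Csf1r, another of the 7, had means of 178 and 165 CPM. Correlations with the sum were not run without Lyz2. Within the atorvastatin group, the log2 level of Abcg1 followed the log2 summed level of the macrophage markers (r = 0.81, rho = 0.87, 16 mice, adjusted permutation p = 0.0026 for r and 0.00096 for rho over 24 relations). It was also 0.81 without the 2 mice farthest from the median of Abcg1. Within the other groups r was 0.59 on chow and 0.52 on WTD, neither of which passed (adjusted permutation p = 0.12 for both). Without the 2 farthest mice these were -0.016 and 0.079. Leaving out the extremes of Abcg1 also narrows its range, so this cannot show what the correlations rested on. Without the libraries lacking weakly expressed genes, r was 0.088 on chow and 0.61 on WTD (adjusted permutation p = 0.95 and 0.12). For Abca1, r was -0.16 in the atorvastatin group (adjusted permutation p = 0.77). Abcg5 (r = -0.68, rho = -0.64) and Abcg8 (r = -0.69, rho = -0.63) ran against the macrophage markers in that group (adjusted permutation p = 0.028 for r of each and 0.075 for rho of each), and against Abcg1 (r = -0.72 for each, rho = -0.68 and -0.69, adjusted permutation p = 0.026 and 0.025 for r and 0.075 for rho of each). Without the 2 farthest mice r was -0.57 and -0.53 with the markers and -0.60 and -0.56 with Abcg1, and none of the 4 passed. Without the libraries lacking weakly expressed genes, the correlations with the markers passed (adjusted permutation p = 0.046 for r of each) and those with Abcg1 did not (adjusted permutation p = 0.053 for each). Atorvastatin mice 1 to 4, neighbours in accession order, had Abcg1 at 59.5 to 87.2 CPM and marker sums of 1285 to 1899 CPM. The rest of the group had 33.6 to 75.8 CPM and 950 to 1568 CPM. The permutations shuffled all 16 mice freely, and the correlations were not run without mice 1 to 4.

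**Figure D3:**
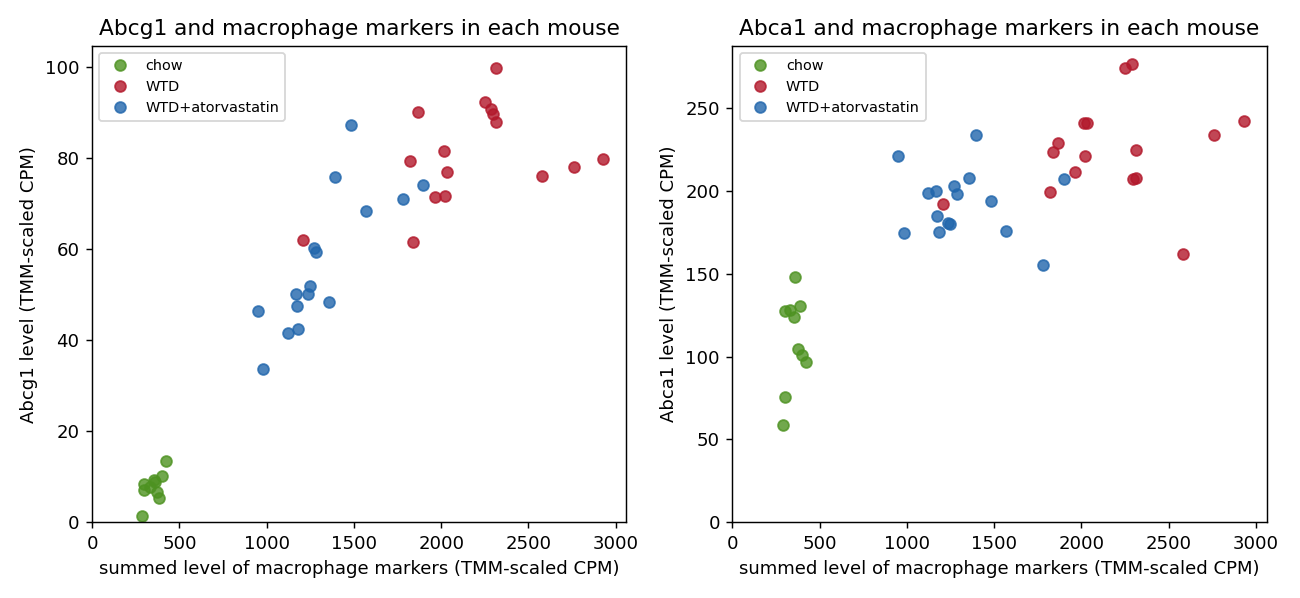
Level of Abcg1 (left) and Abca1 (right) in each mouse (y axis) against the summed level of the macrophage markers (x axis), both in TMM-scaled CPM, coloured by group. For Abcg1 the atorvastatin group runs upwards with the markers (r = 0.81 on the log2 scale), and for Abca1 r is -0.16.

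Abcg5 and Abcg8 encode the partner subunits of a single transporter that puts cholesterol and plant sterols into bile. The genes lie head to head on chromosome 17, Abcg5 (ENSMUSG00000040505) at GRCm38 chr17:84658234-84683011 on the minus strand and Abcg8 (ENSMUSG00000024254) at chr17:84676302-84700333 on the plus strand. Their exons share 82 bases on opposite strands, and the counting kept strands apart. The 109 bases between the RefSeq starts (GRCm38.p6 chr17:84683012-84683120, written on the strand of Abcg8) are shown because the genes moved together, with matches to AGATAA, the letters bound by GATA factors, in capitals as TTATCT.
Abcg5-Abcg8: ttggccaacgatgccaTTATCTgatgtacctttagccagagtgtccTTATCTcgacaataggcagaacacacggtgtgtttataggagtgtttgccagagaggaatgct
This stretch holds 2 matches. The 300-base windows of these starts hold 3 each on both strands together, and 0.107% of all windows hold at least as many. These windows overlap and both cover the stretch, so its 2 matches are counted in each. RefSeq also gives Abcg8 a start at position 84676302, inside Abcg5, and that window holds 0 matches. The motif was picked after the sequence had been read, so the share is a description. The best match to DR4 in these windows had 4 mismatches, as good as in 76.9% of all windows.

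Abcg5 was at 49.7 CPM at the lowest, 82.5 at the median and 109 at the highest on chow, at 209, 257 and 448 on WTD, and at 171, 263 and 470 with atorvastatin. Abcg8 was at 54.7, 71.7 and 87.9 CPM on chow, 118, 192 and 375 on WTD, and 132, 212 and 432 with atorvastatin. For both genes every WTD-fed mouse lay above every chow-fed mouse, and the groups with and without atorvastatin overlapped widely. Abcg5 rose by 1.74 on the log2 scale between chow and WTD (SE 0.14, edgeR adjusted p = 2.9e-14), and Abcg8 by 1.48 (SE 0.17, edgeR adjusted p = 5.8e-10). Between atorvastatin and WTD, Abcg5 had a log2 fold change of -0.05 (95% interval -0.28 to 0.18) and Abcg8 of 0.12 (-0.16 to 0.40), neither called by edgeR (adjusted p = 0.85 and 0.69). WTD mouse 15 was the highest of its group for Abcg5, Abcg8 and Lpcat3.

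The genes followed each other from mouse to mouse. The correlation of their log2 levels was 0.87 on chow (rho = 0.78, n = 10), 0.87 on WTD (rho = 0.92) and 0.96 with atorvastatin (rho = 0.93), with adjusted permutation p of 0.020, 0.0025 and 0.00084 for r over 84 relations. The adjusted permutation p for rho was 0.12 on chow and 0.00042 in both groups on WTD. Without the 2 mice farthest from the median, r was 0.63, 0.75 and 0.95, and only the last passed. The raw permutation p for r with atorvastatin, 1e-05, is the smallest that 100000 permutations can give.

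The rise was not equal for both genes. For every Abcg5 count there were 0.874 Abcg8 counts at the chow median, 0.714 on WTD and 0.804 with atorvastatin. The mean log2 ratio was -0.20 ± 0.19 (SD, n = 10) on chow, -0.50 ± 0.19 (n = 16) on WTD and -0.34 ± 0.15 (n = 16) with atorvastatin. It was lower on WTD than on chow by a two-sided permutation test (difference -0.30, adjusted p = 0.00054) and higher with atorvastatin than on WTD alone (0.17, adjusted p = 0.020). Without the 8 libraries lacking weakly expressed genes the second difference was 0.12 and did not pass (permutation test, adjusted p = 0.11). Atorvastatin and chow differed by -0.14 (permutation test, adjusted p = 0.10).

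**Figure D4:**
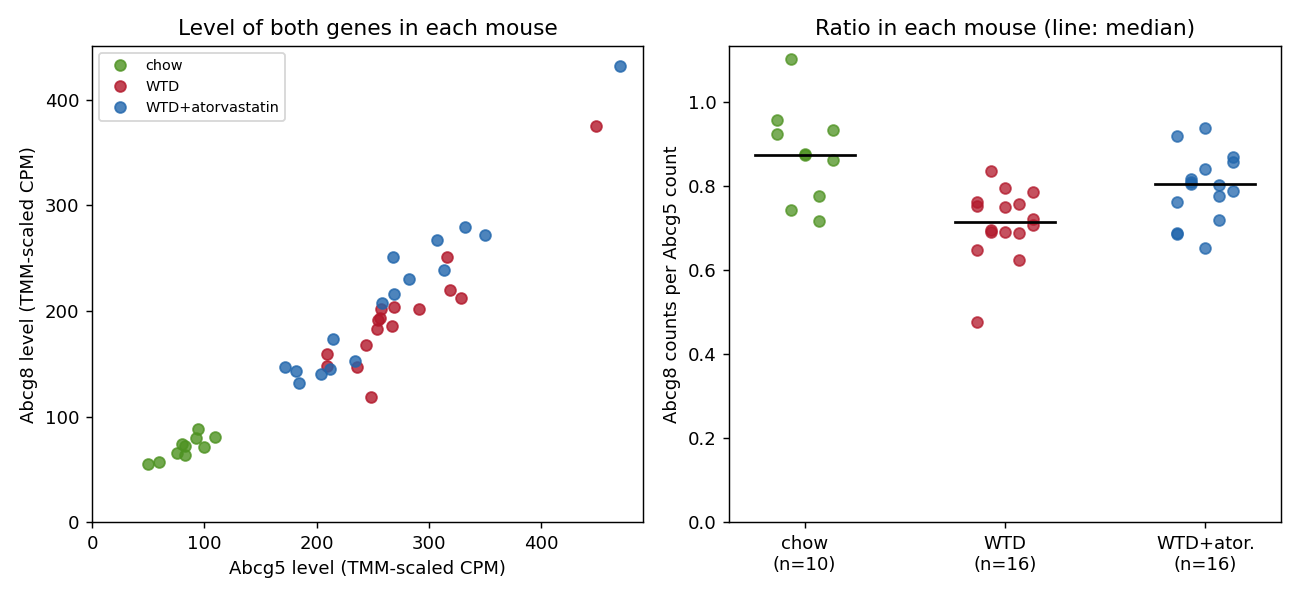
Left, level of Abcg8 (y axis) against Abcg5 (x axis) in each mouse, in TMM-scaled CPM, coloured by group. Right, Abcg8 counts per Abcg5 count in each mouse (y axis) by group (x axis), with the median as a line, at 0.874 on chow, 0.714 on WTD and 0.804 with atorvastatin.

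Lpcat3 encodes the enzyme that places polyunsaturated fatty acids into membrane phospholipids (ENSMUSG00000004270, GRCm38 chr6:124663027-124704418, plus strand). Its levels were 89.2 CPM at the lowest, 116 at the median and 133 at the highest on chow, 83.4, 116 and 157 on WTD, and 85.4, 150 and 204 with atorvastatin. Chow and WTD overlapped over most of their range, and 12 of 16 atorvastatin-treated mice lay above the WTD median. The 4 below it were atorvastatin mice 1 to 4 (112, 85.4, 103 and 111 CPM), which are neighbours in accession order. The log2 fold change was 0.05 between WTD and chow (SE 0.10, edgeR adjusted p = 0.72) and 0.31 between atorvastatin and WTD (SE 0.09, 95% interval 0.13 to 0.49, edgeR adjusted p = 0.013). Between atorvastatin and chow it was 0.36 (SE 0.10, edgeR adjusted p = 0.0044), and that call was lost without the 8 libraries lacking weakly expressed genes (0.36, adjusted p = 0.016), with only those 2 groups in the fit (0.34, adjusted p = 0.013) and without chow mouse 8 (adjusted p = 0.013).

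Pltp encodes the plasma protein that transfers phospholipids between lipoproteins (ENSMUSG00000017754, GRCm38 chr2:164839518-164857711, minus strand). It was at 56.2 CPM at the lowest, 99.9 at the median and 177 at the highest on chow, at 195, 270 and 445 on WTD, and at 166, 268 and 361 with atorvastatin. All 16 WTD-fed mice and 15 of 16 with atorvastatin lay above the highest chow-fed mouse. The log2 fold change was 1.47 between WTD and chow (SE 0.14, edgeR adjusted p = 7.8e-12) and 1.38 between atorvastatin and chow (SE 0.14, edgeR adjusted p = 9.7e-11). Atorvastatin and WTD differed by -0.09 (SE 0.12, edgeR adjusted p = 0.73). Within the WTD group Pltp followed Nr1h3 (r = 0.86, rho = 0.72, 16 mice, adjusted permutation p = 0.0021 for r and 0.068 for rho), but without the 2 mice farthest from the median r was 0.62 and did not pass.

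Per length of exon, in RPKM (CPM divided by exon length in kilobases), the order of levels changed with diet. On chow, Nr1h3 led with a mean of 61.1 ± 8.35 (SD, n = 10), followed by Pltp at 39.0 ± 14.2, Lpcat3 at 34.6 ± 3.82 and Abcg5 at 30.4 ± 6.63. The ranges of mean ± SD of these neighbours overlapped. Nr1h2 at 21.3 ± 1.5 and Abcg8 at 18.9 ± 2.85 overlapped in the same way, and Abca1 at 10.6 ± 2.65 and Abcg1 at 1.07 ± 0.44 were clear of their neighbours. On WTD, Pltp at 108 ± 23.5 and Abcg5 at 102 ± 21.3 (n = 16) came first and overlapped. They were followed by Nr1h3 at 52.7 ± 8.70 and Abcg8 at 52.7 ± 15.3, which overlapped with each other and, for Abcg8, with Lpcat3 at 35.8 ± 5.62. Abca1 at 21.6 ± 2.78 and Nr1h2 at 17.1 ± 3.56 also overlapped, and Abcg1 was last at 11.0 ± 1.48. With atorvastatin, Pltp at 102 ± 19.1 and Abcg5 at 97.9 ± 28.6 again led and overlapped, and here Abcg5 also overlapped with Abcg8. Abcg8, Nr1h3 and Lpcat3 followed at 57.1 ± 20.9, 54.5 ± 5.49 and 44.4 ± 10.1 with overlapping ranges, and Abcg1 was last at 7.78 ± 2.03.

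Other genes of the pathway were read from lists, which were also chosen with earlier results of these data known. Of the 14 partners and coregulators of LXR, 1 was higher and 3 were lower on WTD than on chow, a share near the 33.5% called over all tested genes. Rxra, the main retinoid X receptor gene of liver, fell by 0.36 on the log2 scale (SE 0.09) and Rxrg by 0.47 (SE 0.13), with Ncor1, a corepressor, falling by 0.22 (SE 0.07). With atorvastatin none of the 14 was called against WTD by edgeR, where 7.10% of all tested genes were called, and 5 had an unadjusted p under 0.05.

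Among 7 tested enzymes that make or remove sterol ligands, 4 fell on WTD and 1 rose, beside 33.5% called over all tested genes. Cyp27a1, which makes 27-hydroxycholesterol, fell by 0.92 (SE 0.09), and Cyp7b1, which breaks oxysterols down, fell by 1.09 (SE 0.19). Also called, and named after their values were seen, were Cyp39a1, which fell by 0.66 (SE 0.15), and Sult2b1, a sterol sulfotransferase, which had no count in 9 of 10 chow-fed mice and a mean of 1.36 CPM on WTD. Cyp27a1 exceeded its WTD level in the atorvastatin group (0.33, SE 0.08, edgeR adjusted p = 0.0050).

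Of 15 further LXR target genes tested, 10 rose and 4 fell on WTD, beside 33.5% called over all tested genes. Their median log2 fold change was 0.99. Cd5l, a macrophage secreted protein, rose by 3.12 (SE 0.11), Scd2, a fatty acid desaturase, by 2.86 (SE 0.17) and Mylip, which marks the LDL receptor for degradation, by 1.54 (SE 0.12). Those that fell, named after their values were seen, included Cyp7a1, the rate-limiting enzyme of bile acid synthesis (-1.46, SE 0.25), Apoc1 (-0.71, SE 0.14) and Apoe (-0.33, SE 0.07). Between atorvastatin and WTD, 3 of the 15 were called, beside 7.10% of all tested genes. Lpl, a triglyceride lipase, fell by 1.02 (SE 0.21) and Cd5l by 0.39 (SE 0.08), and Fasn, the fatty acid synthase, rose by 1.13 (SE 0.29).

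**Figure D5:**
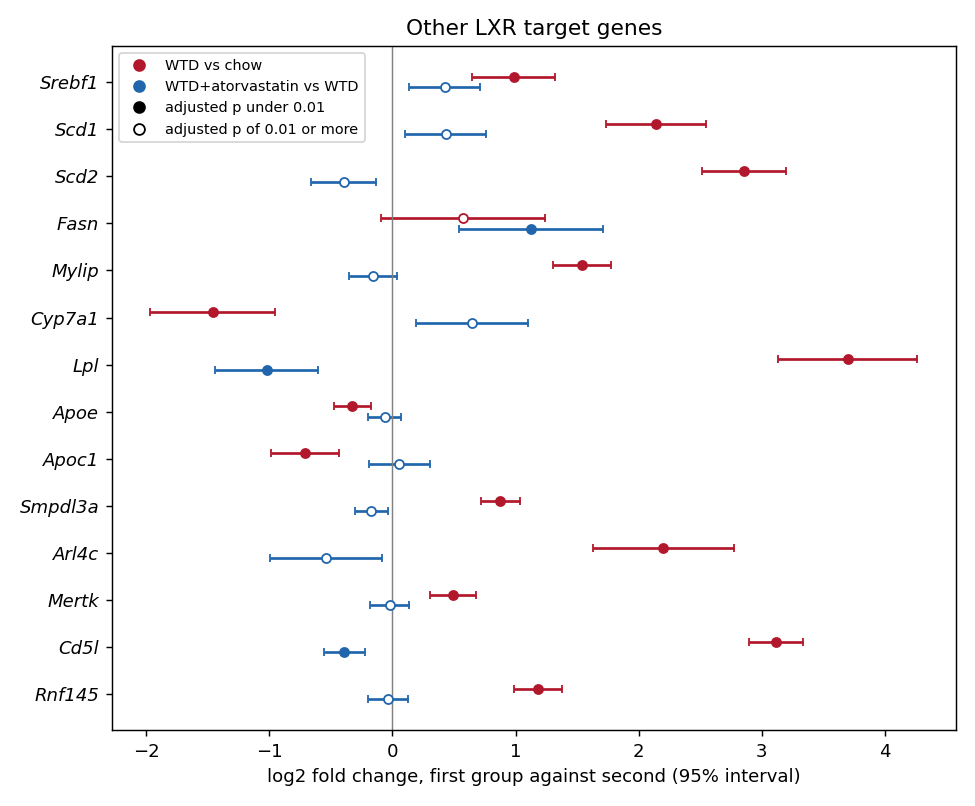
Log2 fold change (x axis) with its 95% interval of 14 of the further LXR target genes, for WTD against chow and for atorvastatin against WTD, from edgeR. Filled points have an adjusted p under 0.01, with 13 filled for diet and 3 for atorvastatin.

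Of 20 other genes of sterol traffic, 5 rose and 7 fell on WTD, beside 33.5% called over all tested genes. Soat1, which esterifies cholesterol and is the form of macrophages, rose by 2.47 (SE 0.19), and Gramd1b, which carries cholesterol from the plasma membrane to the endoplasmic reticulum, rose by 2.53 (SE 0.22), while its relative Gramd1c fell by 1.31 (SE 0.09). With atorvastatin, 5 were higher and 1 was lower than on WTD, beside 7.10% called over all tested genes. Stard4, a sterol carrier, was higher by 0.81 (SE 0.14), Gramd1c by 0.57 (SE 0.08) and Abcb11, the bile salt export pump, by 0.44 (SE 0.08). The 1 that was lower, named after its value was seen, was Npc2, a lysosomal cholesterol carrier (-0.35, SE 0.07). Against chow, the atorvastatin group had 1 higher and 0 lower of the 14 partners, 1 and 3 of the 7 ligand enzymes, 11 and 4 of the 15 targets and 6 and 7 of the 20 traffic genes. Over all tested genes, 25.0% were called in that comparison.

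The genes most like each of the 8 were read from deviations of log2 CPM from the group means over 42 mice, among 10780 genes with a mean of at least 5 CPM. For Abcg5 these were Amdhd1 (r = 0.76), Ivd (0.76) and Hal (0.73), and for Abcg8 Ces2a (0.80), Hal (0.79) and Ivd (0.77), all of amino acid or xenobiotic metabolism. Lpcat3 was closest to Pank1 (0.76), Gys2 (0.75) and Ppara (0.73). Abcg1 was closest to the immune genes Ptafr (0.85) and Tlr4 (0.84). For Nr1h3 they were Naxd, Stard10 and Josd2 (0.68 each), and for Pltp Hnf1aos1, Themis2 and Agpat1 (0.66 to 0.68). They were Kdf1, Arid3b and E030030I06Rik for Nr1h2 (0.80 to 0.85) and Hpgds, Gmfb and C1qtnf7 for Abca1 (0.75 to 0.77). These choices changed without the 8 libraries lacking weakly expressed genes. Of the 3 nearest genes, 2 were shared for Pltp, 1 each for Nr1h3 and Abcg8, and 0 for Nr1h2, Abca1, Abcg1, Abcg5 and Lpcat3. The r of the first chosen genes became 0.30 to 0.56 for Nr1h2, 0.36 to 0.52 for Abca1 and 0.51 to 0.68 for Abcg1, and it was 0.65 to 0.84 for the other 5.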

How the data were processed

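Poly(A) RNA from snap-frozen liver was sequenced strand-specifically, 1 library per mouse. The authors trimmed reads with Trimmomatic, aligned them to GRCm38 with STAR 2.5 and counted them with HTSeq 0.6.1p1, per the labels. The deposited counts are whole numbers per gene without normalization. Entries that name no gene (12.15% to 13.8% of counts) were left out. Symbols were found for 54409 of 54446 identifiers, and positions and exon lengths came from GENCODE vM21.

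All 42 mice were fitted in edgeR 4.0.16 (R 4.3.3; filterByExpr, minimum count 10, minimum total 15; TMM; robust quasi-likelihood test), with p adjusted by Benjamini-Hochberg over 15574 genes and called under 0.01. DESeq2 1.42.0 and limma 3.58.1 were alternatives. The test was tested on simulated counts. Ratios (counts + 0.5, 6 tests) and within-group correlations (84 pairs and 24 marker relations) used 100000 permutations and were called under an adjusted p of 0.05. No library pair agreed within sampling noise. Counting used strand, since 375 of 376 genes nested in another on the same strand had no count, against 141 of 535 on the opposite strand.

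The 8 genes, the lists and the naming rule (all 8, and the 3 smallest p per list and comparison) were chosen with earlier results of these data known. Replicates were separate mice. Promoters matched for 7 of 8 genes (RefSeq, GRCm38.p6), and Abcg1 had no entry. Some genes that the rule would name are not reported here.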

Additional observations from a re-analysis of the deposited data

Results flagged for a closer look

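In the chow group, Pltp in mouse 9 stood apart at 177 CPM, with a gap to its nearest neighbour of 0.474 of the group's range, just over the limit for 10 samples. Chance gives such a gap in about 1 in 20 groups, and 8 genes and 2 ratios were read. Pltp on chow had a median of 99.9 CPM, and even this mouse lay below every WTD-fed mouse without atorvastatin. The library of chow mouse 9 lacked 6.44% of weakly expressed genes.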

How the results depend on the processing

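Under 12 alternatives and with each of 42 mice left out, the log2 fold changes of Abca1, Abcg1, Abcg5, Abcg8 and Pltp against chow kept their direction, and their calls except that of Abca1 between atorvastatin and chow (0.82) where an absolute log2 fold change of 1 was also required. Between atorvastatin and WTD, the count of called genes (0) became 1 (Abcg1) with RLE, upper-quartile scaling, a floor of 10 counts per mouse, non-robust dispersions, only the 2 groups in the fit and DESeq2, 2 with an adjusted p under 0.05, and 3 with limma-voom. Leaving out a mouse gave 0 to 2 there, 6 to 7 between WTD and chow and 5 to 6 between atorvastatin and chow. Abcg1 passed without each of 8 mice (chow 5 and 6, WTD 1 and 15, atorvastatin 1, 2, 4 and 15) and Lpcat3 without each of 5 (WTD 15, atorvastatin 1 to 4). The log2 fold change reversed for Pltp with limma-voom (0.030) and for Abcg5 without WTD mouse 15 (-0.13 to 0.0093 over all mice left out), neither of them called. Nr1h2 between WTD and chow was lost with at least 10 counts in every mouse (adjusted p = 0.0101), without the 8 libraries (0.0135) and with 2 groups only (0.022), and Nr1h3 passed without chow mouse 4 or WTD mouse 14. Lpcat3 between atorvastatin and chow was lost without chow mouse 8. For the log2 ratio of Abcg8 to Abcg5, leaving out a mouse gave -0.33 to -0.26 for WTD against chow, 0.13 to 0.18 for atorvastatin against WTD and -0.17 to -0.097 for atorvastatin against chow, which passed without chow mouse 8 or 10. Without the 8 libraries the second was 0.12 and did not pass. That of Nr1h3 to Nr1h2 ran from -0.013 to 0.047 between atorvastatin and chow. Correlated pairs (1 on chow, 2 on WTD, 3 with atorvastatin) became 0, 1 and 1 with Spearman's rho, 0, 0 and 1 without the 2 farthest mice, and 0 on chow and 1 with atorvastatin without the 8 libraries. Genes correlated with macrophage markers (0, 0 and 3) became 1 on chow with RLE and 1 with atorvastatin with rho or without the 2 farthest mice. The cause of these changes was not tested. No paired analysis was possible because each mouse was in 1 group and the replicate numbers follow the accession order. Depth limits Abcg1 most, at 28 counts in the lowest chow library.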

Other observations

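Of 17 relatives of the transporter and acyltransferase genes that were tested, 6 rose and 4 fell on WTD against chow. Over all tested genes, 33.5% were called in that comparison. Lpcat2, an acyltransferase of inflammatory cells, rose by 2.12 (SE 0.16) and Lpcat1 by 2.07 (SE 0.29) on the log2 scale, beside 0.05 for Lpcat3. Abcg3 rose by 1.60 (SE 0.16). With atorvastatin, Abca3 (0.49, SE 0.08) and Abca2 (0.40, SE 0.10) were the 2 of the 17 higher than on WTD in edgeR, and none was lower. The share called over all tested genes was 7.10% there.

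Other cell type markers also moved. The 5 lipid-associated macrophage markers all rose on WTD and 3 fell with atorvastatin, with median summed levels of 142 CPM on chow, 1258 on WTD and 578 with atorvastatin. The 4 cholangiocyte markers rose on WTD (23.4 to 76.3 CPM at the medians) and none was called with atorvastatin by edgeR, although all 4 had an unadjusted p under 0.05. Of the 5 Kupffer cell markers 2 rose on WTD, of the 5 endothelial markers 1 rose and 2 fell, and of the 5 stellate cell markers 2 rose. With atorvastatin against WTD, 1 Kupffer cell marker was higher (Clec4f, 0.62, SE 0.16), 2 endothelial markers were higher (Clec4g and Kdr) and 0 lower, and 1 stellate cell marker was higher (Reln) and 2 were lower (Pdgfrb and Dcn). Of the neutrophil markers 2 were tested and both rose, and no T cell or B cell marker was called by edgeR. The part of these changes in the levels of the 8 genes was not tested.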
